A study of Mus musculus with 2 samples.

Results

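The VEGF ligands and their receptors are described here across the cells of 2 mouse liver tumour models. The 9 genes were taken by symbol from the 55450 genes of the count matrices: the ligands Vegfa, Vegfb, Vegfc and Pgf, the receptors Kdr, Flt1 and Flt4, and the co-receptors Nrp1 and Nrp2. All 9 were found in both libraries. Tumours had been induced in C57BL/6 mice by injecting plasmids rapidly and in a large volume into the tail vein, which delivers them to hepatocytes, with the Sleeping Beauty transposase to insert the oncogenes into the genome. In the group labelled NRAS.MYC.ND the plasmids coded for human N-Ras (19 µg per mouse), human c-Myc (1 µg) and the transposase (2 µg). In the group labelled AKT1.MYC they coded for Akt1 (10 µg), human c-Myc (10 µg) and the transposase (5 µg), so the amounts of plasmid differed along with the oncogene, while c-Myc and the transposase were common to both. Tumours were resected 14 weeks after injection, dissociated, enriched for live cells and sequenced from the 3′ end of the RNA, with 1 library per model. The labels do not say how many mice or tumours went into a library, and no untreated liver was analysed here.

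VEGF-A, VEGF-B, VEGF-C and PlGF (the product of Pgf) are secreted growth factors of one family. VEGF-A binds VEGFR-1 (Flt1) and VEGFR-2 (Kdr), PlGF and VEGF-B bind VEGFR-1, and VEGF-C binds VEGFR-3 (Flt4) and, after processing, VEGFR-2. VEGFR-2 carries most of the signal for endothelial growth, sprouting and permeability, VEGFR-1 binds VEGF-A tightly but signals weakly and also exists as a secreted form, and VEGFR-3 is best known from lymphatic vessels but is also made by the fenestrated endothelium of liver sinusoids. The neuropilins bind VEGFs and class 3 semaphorins and act beside the VEGF receptors and plexins. In liver, hepatocytes are a source of VEGF-A for the neighbouring sinusoids, and Vegfa is a classic target of the hypoxia-inducible factors.

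The NRAS.MYC.ND library gave 5634 kept cells with a median of 4240 UMIs (unique molecular identifiers, each a counted RNA molecule), and the AKT1.MYC library 9398 kept cells with a median of 1987. Cells were assigned to classes by marker genes. The classes used most were endothelial cells (785 in NRAS.MYC.ND against 369 in AKT1.MYC), mononuclear phagocytes (1447 and 2688), neutrophils (283 and 1016), epithelial cells (487 and 1607), fibroblasts and pericytes (36 and 678) and T and NK cells (1412 and 120). A level is given as CPM, the gene's UMIs per 1000000 UMIs of that class and library, with an exact Poisson 95% interval in brackets. Each group is 1 library, so there is no replicate, no test of the difference between models was possible, and intervals cover counting error only. A gene counted as measured if the libraries together held 10 or more of its UMIs, and as higher in one of them if the CPM were 2-fold apart or more. The 2 libraries shared 13 barcodes among kept cells. RNA free in the droplets was estimated at 9.66% of the endothelial profile in NRAS.MYC.ND against 11.7% in AKT1.MYC, at 5.76% and 13.1% in phagocytes, and at 6.39% and 21.0% in neutrophils. The counts are per gene, so they do not separate the secreted from the membrane form of Flt1, nor the isoforms of Vegfa.

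In endothelial cells, Kdr, Nrp1, Nrp2, Flt4 and Vegfb stood more than 2-fold above their AKT1.MYC level in NRAS.MYC.ND, Pgf was 23.7-fold higher in AKT1.MYC (a log2 ratio of 4.57, and of 2.31 with cells thinned to equal depth), and Flt1, Vegfc and Vegfa lay within 2-fold. The NRAS.MYC.ND library was thus the higher one for 5 of the 9 genes, as it was for 12.6% of all 14057 genes measured in endothelial cells. AKT1.MYC was the higher one for 1 of the 9 and for 10.2% of all genes, and the median log2 ratio was -0.12, against -1.12 for the 9 genes. All 12 genes by which the class was gated were detected in it in both libraries. Since the gate used them, their levels only describe it. Pecam1, for example, stood at 911 CPM in endothelial cells against 25.6 in the other cells of NRAS.MYC.ND, and at 768 against 8.18 in AKT1.MYC. The 12 markers summed to 11014 CPM and 9062 CPM, and 2 of them were 2-fold lower in AKT1.MYC.

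Kdr codes for VEGFR-2 and lies on the minus strand at chr5:75932827-75978458 of GRCm38. It stood at 2050.1 CPM [2018 to 2082] in the endothelial cells of NRAS.MYC.ND and at 683 CPM [654 to 713] in those of AKT1.MYC. The log2 ratio of AKT1.MYC to NRAS.MYC.ND was -1.59 [-1.65 to -1.52], about 3-fold in favour of NRAS.MYC.ND, and the intervals lay far apart. Endothelial cells were also thinned to 2034 UMIs each, leaving out 45 and 71 cells with fewer. Of the 740 and 298 cells thinned, 93.9% of the NRAS.MYC.ND ones and 66.4% of the AKT1.MYC ones held a Kdr UMI, and over all cells without thinning 97.7% and 84.0% did. Most Kdr in both tumours was endothelial: this class held 95.3% of the gene's 16804 UMIs in NRAS.MYC.ND and 88.2% of its 2405 UMIs in AKT1.MYC.

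Flt1 codes for VEGFR-1 and lies on the minus strand at chr5:147561604-147726011. Its endothelial level was 832 CPM [812 to 852] in NRAS.MYC.ND and 769 CPM [738 to 800.3] in AKT1.MYC, a log2 ratio of -0.11 [-0.18 to -0.05]. Over all endothelial cells it was the receptor with the smallest difference between the models, though not within the vascular-type cells described below. In thinned cells 74.7% and 70.8% held a Flt1 UMI. Levels are not compared between the 2 genes, since capture at the 3′ end can differ from gene to gene.

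The promoters of Kdr and Flt1 are shown because these receptors of the same ligand compared differently between the models over all endothelial cells. That of Vegfa is shown because it is the main ligand. Each sequence is the 250 bases before the RefSeq start site farthest upstream in GRCm38.p6, read 5′ to 3′ on the gene's strand. Kdr is chr5:75978456-75978705, Flt1 chr5:147726012-147726261 and Vegfa chr17:46032378-46032627, all on the minus strand. Capitals mark matches, on either strand, to the ETS core GGAAG, the GC box GGGCGG and the hypoxia-response cores ACGTG and GCGTG, and matches of different motifs may share a base.
Kdr: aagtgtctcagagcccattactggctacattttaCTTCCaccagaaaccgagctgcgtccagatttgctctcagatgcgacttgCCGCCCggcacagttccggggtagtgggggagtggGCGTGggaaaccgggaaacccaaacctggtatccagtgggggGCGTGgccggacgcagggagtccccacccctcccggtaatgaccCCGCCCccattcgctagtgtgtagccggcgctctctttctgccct
Flt1: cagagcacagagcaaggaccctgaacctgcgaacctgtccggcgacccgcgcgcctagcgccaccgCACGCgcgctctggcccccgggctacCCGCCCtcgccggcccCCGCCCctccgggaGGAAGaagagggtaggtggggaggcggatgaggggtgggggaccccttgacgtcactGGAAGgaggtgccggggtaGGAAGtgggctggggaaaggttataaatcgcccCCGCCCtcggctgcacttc
Vegfa: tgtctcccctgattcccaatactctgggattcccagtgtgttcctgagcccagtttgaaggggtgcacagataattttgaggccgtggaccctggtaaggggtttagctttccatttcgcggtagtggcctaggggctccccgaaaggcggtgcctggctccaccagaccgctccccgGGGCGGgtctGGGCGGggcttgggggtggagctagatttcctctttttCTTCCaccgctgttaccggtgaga
The Kdr window held 1 ETS core, 2 hypoxia cores and 2 GC boxes. The Flt1 window held 3, 1 and 3 of them, and the Vegfa window 1, 0 and 2. Across the 9 genes, the ETS core was found in 5 windows, the hypoxia core in 6 and the GC box in 9, where 64.1%, 38.6% and 32.7% of all 32851 promoter windows of this length held them. The 9 windows were from 59.2% (Vegfa) to 76.4% (Vegfb) G or C, and the shares over all windows were not matched for this. A match is only a run of letters and says nothing of binding in these cells.

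Nrp1 and Nrp2 were both lower in the endothelial cells of AKT1.MYC. Nrp1, at chr8:128358604-128503363 on the plus strand, codes for a co-receptor that strengthens VEGF-A signalling through VEGFR-2. It stood at 864 CPM [843 to 885] in NRAS.MYC.ND and 348 CPM [327 to 369] in AKT1.MYC, 2.48-fold higher in NRAS.MYC.ND. Nrp2, at chr1:62703285-62818695 on the plus strand, codes for the co-receptor linked with VEGF-C and VEGFR-3, and stood at 307 CPM [295 to 320] and 135 CPM [122 to 148], 2.28-fold higher in NRAS.MYC.ND. In thinned endothelial cells Nrp1 was seen in 77.7% and 44.6%, and Nrp2 in 43.4% and 22.1%. In neither gene did the intervals of the libraries meet. GENCODE places Mir1903 within Nrp1 and Gm37121 within Nrp2 on the same strand, and Gm29083 on the opposite strand of Nrp2, and which annotation was used for counting was not given in the sources used here.

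Flt4 codes for VEGFR-3 and lies on the plus strand at chr11:49609263-49652739. Over all endothelial cells it stood at 460.5 CPM [446 to 476] in NRAS.MYC.ND and 212 CPM [196 to 229] in AKT1.MYC, 2.17-fold higher in NRAS.MYC.ND, and just short of 2-fold in thinned cells, at a log2 ratio of -0.97. This difference shrank when the endothelium was split into its subsets. By markers, 385 NRAS.MYC.ND endothelial cells and 54 AKT1.MYC ones were sinusoidal-type (marked by Stab2, Clec4g, Lyve1 and others) and 340 and 219 were vascular-type (marked by Plvap, Cd34, Vwf and others). Only 2 cells, both of AKT1.MYC, were gated as lymphatic. The 5 lymphatic markers, of which Lyve1 also marks sinusoids, summed to 710.2 CPM in the sinusoidal-type cells of NRAS.MYC.ND and 2166 CPM in those of AKT1.MYC, and to 11.8 and 188 CPM in vascular-type cells, with 2 of 2 measured markers higher in AKT1.MYC in each subset. Their part in the Flt4 level was not tested. In sinusoidal-type cells Flt4 stood at 733 CPM [706 to 760.2] and 541 CPM [471 to 619], a log2 ratio of -0.44 [-0.64 to -0.24], and in vascular-type cells at 163 CPM [149.7 to 177] and 151 CPM [136 to 168], a log2 ratio of -0.11 [-0.31 to 0.09]. Neither subset reached 2-fold, and the mix of the subsets differed between the libraries.

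**Figure D1:**
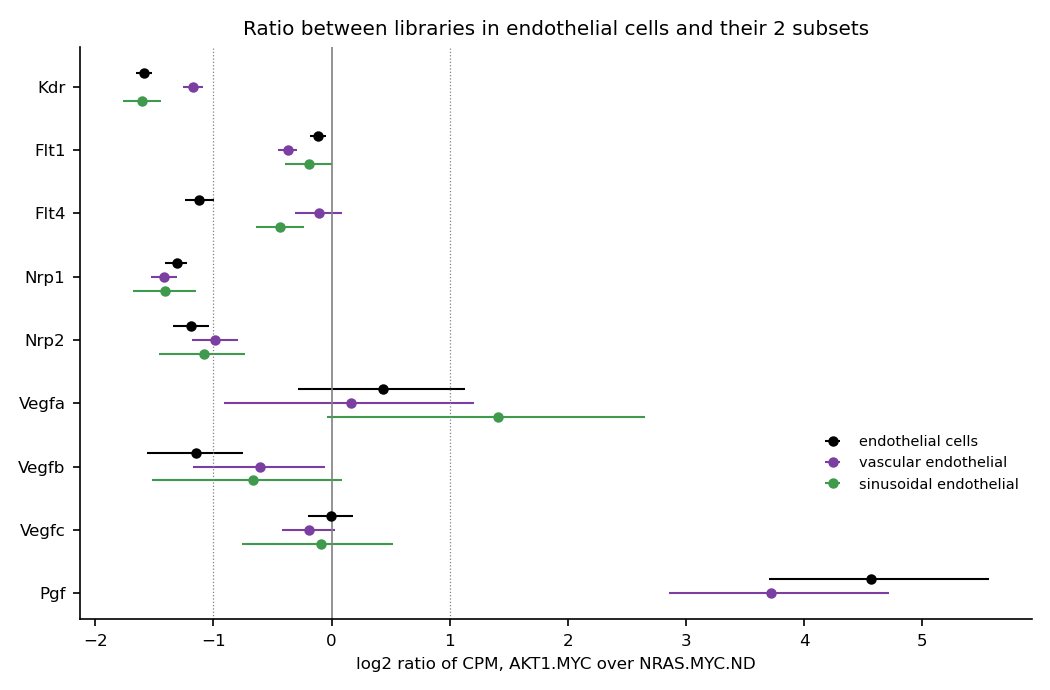
Log2 ratio of the CPM in AKT1.MYC to that in NRAS.MYC.ND (horizontal axis) for each gene in all endothelial cells (black), vascular-type cells (purple) and sinusoidal-type cells (green); points are ratios, bars are 95% counting intervals and dotted lines mark 2-fold. Kdr, Nrp1 and Nrp2 lie at or near -1 or below in all 3 sets, Flt4 does so only in the pooled set, at -1.12, and Pgf lies above 3; Pgf has no point in sinusoidal-type cells, where it was not measured.

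Kdr, Nrp1 and Nrp2 kept their differences within both subsets. Kdr stood at 2596 CPM [2545 to 2647] against 855 CPM [766 to 951] in sinusoidal-type cells and at 1512 CPM [1471 to 1554] against 671 CPM [638 to 706] in vascular-type cells, with NRAS.MYC.ND higher in each. Nrp1 stood at 818 against 309 CPM and at 948 against 355 CPM, log2 ratios of -1.41 and -1.42. Nrp2 stood at 359 against 169.5 CPM and at 253 against 128 CPM, log2 ratios of -1.08 and -0.99, the second just short of 2-fold. Flt1 was within 2-fold in both, at 653 against 572 CPM and at 1070.4 against 829 CPM, log2 ratios of -0.19 and -0.37. In vascular-type cells the Flt1 difference was larger than that of Flt4, at -0.11. In sinusoidal-type cells 8 of the 9 genes were measured, of which 3 were higher in NRAS.MYC.ND (10.8% of all genes measured there were) and 1, Vegfa, with 26 and 7 UMIs, was higher in AKT1.MYC (8.68% of all genes). The Vegfa difference was short of 2-fold with equal weight per cell. In thinned cells 7 of 350 in NRAS.MYC.ND (2.0%) and 0 of 45 in AKT1.MYC held a Vegfa UMI. Since 0 of 45 allows up to 6.67%, thinned cells cannot show whether the difference was kept. In vascular-type cells 2 of 9 were higher in NRAS.MYC.ND (12.7% of all genes) and 1, Pgf, in AKT1.MYC (9.27%).

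The subsets were not alike in the 2 tumours. When all cells were clustered together, 98.2% of the sinusoidal-type cells of NRAS.MYC.ND fell in cluster 6, against 14.8% of the AKT1.MYC ones, which were 85.2% in cluster 4. Of the vascular-type cells, 85.9% of the NRAS.MYC.ND ones fell in cluster 3 and 98.6% of the AKT1.MYC ones in cluster 4. The 8 sinusoidal markers summed to 11315 CPM in the sinusoidal-type cells of NRAS.MYC.ND and 5943 CPM in those of AKT1.MYC, with 5 of 8 at least 2-fold lower in AKT1.MYC and 1 higher. The 6 vascular markers summed to 8565 CPM and 3587 CPM in vascular-type cells, with 3 of 6 lower in AKT1.MYC and 1 higher. RNA of other cell types also differed over all endothelial cells. The 8 duct-type epithelial markers summed to 6.15 CPM in NRAS.MYC.ND, with 1 at 0, and 251 CPM in AKT1.MYC, with 7 of 7 measured ones higher there. The 10 fibroblast markers summed to 27.7 and 319 CPM, with 8 of 8 measured ones higher in AKT1.MYC, and the 10 hepatocyte-lineage markers to 1628 and 415 CPM, with 8 of 10 higher in NRAS.MYC.ND. The part of these shifts in the receptor differences was not tested.

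Between subsets of the same library, the receptors were ordered alike in both tumours. Flt4 was higher in sinusoidal-type than in vascular-type cells, by a log2 ratio of 2.17 [2.04 to 2.30] in NRAS.MYC.ND and 1.84 [1.59 to 2.09] in AKT1.MYC. Kdr was also higher in sinusoidal-type cells, by 0.78 [0.73 to 0.83] and 0.35 [0.17 to 0.52]. Flt1 was lower there, by -0.71 [-0.79 to -0.64] and -0.54 [-0.74 to -0.34], and so was the ligand Vegfc, by -1.04 and -0.93. Vegfb was higher in sinusoidal-type cells, by 1.13 in NRAS.MYC.ND against 1.08 in AKT1.MYC. Nrp2 was higher there too, by 0.51 [0.38 to 0.63] and 0.41 [0.002 to 0.80]. Nrp1 differed little between the subsets, by -0.21 [-0.28 to -0.14] and -0.20 [-0.49 to 0.08]. None of the members was a marker of either subset.

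Outside the endothelium, mononuclear phagocytes held more Nrp1 and Nrp2 UMIs than any other class in each library. Phagocytes held 1089 Nrp1 UMIs in NRAS.MYC.ND against 1091 in AKT1.MYC, or 85.5 CPM [80.5 to 90.7] and 83.6 CPM [78.7 to 88.7], and these intervals overlapped. In AKT1.MYC that was 31.04% of all Nrp1 UMIs, against 30.7% in endothelial cells, and in NRAS.MYC.ND 12.8% against 79.4%. Nrp2 stood at 23.1 CPM [20.5 to 25.9] and 49.4 CPM [45.7 to 53.4], 2.14-fold higher in AKT1.MYC, the opposite of its endothelial direction, and short of 2-fold with doublets kept, at a log2 ratio of 0.96. Among monocyte-type phagocytes Nrp2 stood at 14.0 and 43.8 CPM, among Kupffer-type cells at 12.5 and 23.7 CPM and among the other phagocytes at 32.2 and 53.7 CPM. It was higher in AKT1.MYC in each of the 3, past 2-fold only in the monocyte-type cells. The intervals of Kupffer-type cells overlapped, at 9.04 to 16.8 CPM from 43 UMIs and 13.6 to 38.6 CPM from 16 UMIs. Those of the monocyte-type cells and of the other phagocytes did not. In the AKT1.MYC tumour phagocytes held more of the Nrp2 UMIs than endothelial cells, 40.3% against 26.1%, while in NRAS.MYC.ND endothelial cells held 83.4% and phagocytes 10.2%.

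In T and NK cells of NRAS.MYC.ND Nrp1 stood at 51.3 CPM [45.2 to 58.0], against 11.5 CPM in B and plasma cells and 20.9 CPM in neutrophils of the same library. Cells with a Cd8a or Cd8b1 UMI and none of Cd4 or Foxp3 stood at 55.2 CPM [48.1 to 63.1], and 16.4% of these 1024 cells held a Nrp1 UMI at a median of 3035.5 UMIs per cell. In the same cells 6.05% held a UMI of Kdr and 4.49% one of Cdh5, both endothelial genes, and the part of free RNA in the Nrp1 share was not tested. Among them, the 743 cells with a Pdcd1 or Lag3 UMI, both coding for inhibitory receptors, stood at 61.0 CPM [52.4 to 70.6] and the 281 without at 37.0 CPM [25.8 to 51.5]. The 46 cells with Cd4 alone stood at 74.4 CPM [38.5 to 130.03]. In AKT1.MYC no Nrp1 UMI was found in 43 Cd8-gated cells at a median of 3104 UMIs, which allows a share of cells with a UMI of up to 6.98% and does not limit the share that expresses the gene, and the whole class of 120 cells held 5 UMIs. Plasmacytoid dendritic cells of NRAS.MYC.ND, 52 cells, stood at 67.9 CPM [40.3 to 107] for Nrp1. These T cell gates were chosen after seeing the data.

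In most other classes, Kdr, Flt1 and Flt4 were low. Kdr stood at 15.1 CPM in phagocytes, 17.3 in T and NK cells, 25.8 in B and plasma cells and 18.5 in epithelial cells of NRAS.MYC.ND, and at 6.43, 7.18, 0 and 3.07 CPM in the same classes of AKT1.MYC. These levels lay below the level over all cells, 442 and 39.9 CPM, and the part of free RNA in them was not tested gene by gene. The 33 mesothelial-type cells of NRAS.MYC.ND were an exception for Kdr at 210.5 CPM [173 to 253] and for Nrp2 at 121 CPM [93.5 to 155], while they held no Nrp1 UMI. Flt1 stood at 49.9 CPM [43.7 to 56.7] in the 678 fibroblasts and pericytes of AKT1.MYC, close to its level over all cells of that library, 50.7 CPM. In fibroblasts and pericytes Nrp1 stood at 138 CPM [98.2 to 189] in the 36 cells of NRAS.MYC.ND and 150.4 CPM [139 to 162] in AKT1.MYC. Free RNA was estimated at 31.2% and 26.4% of these profiles, and its part in the levels of this class was not tested. Flt4 was at 6.87 CPM in epithelial cells of AKT1.MYC, a class that held 52.9% of that library's UMIs and 20.6% of those of Flt4.

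**Figure D2:**
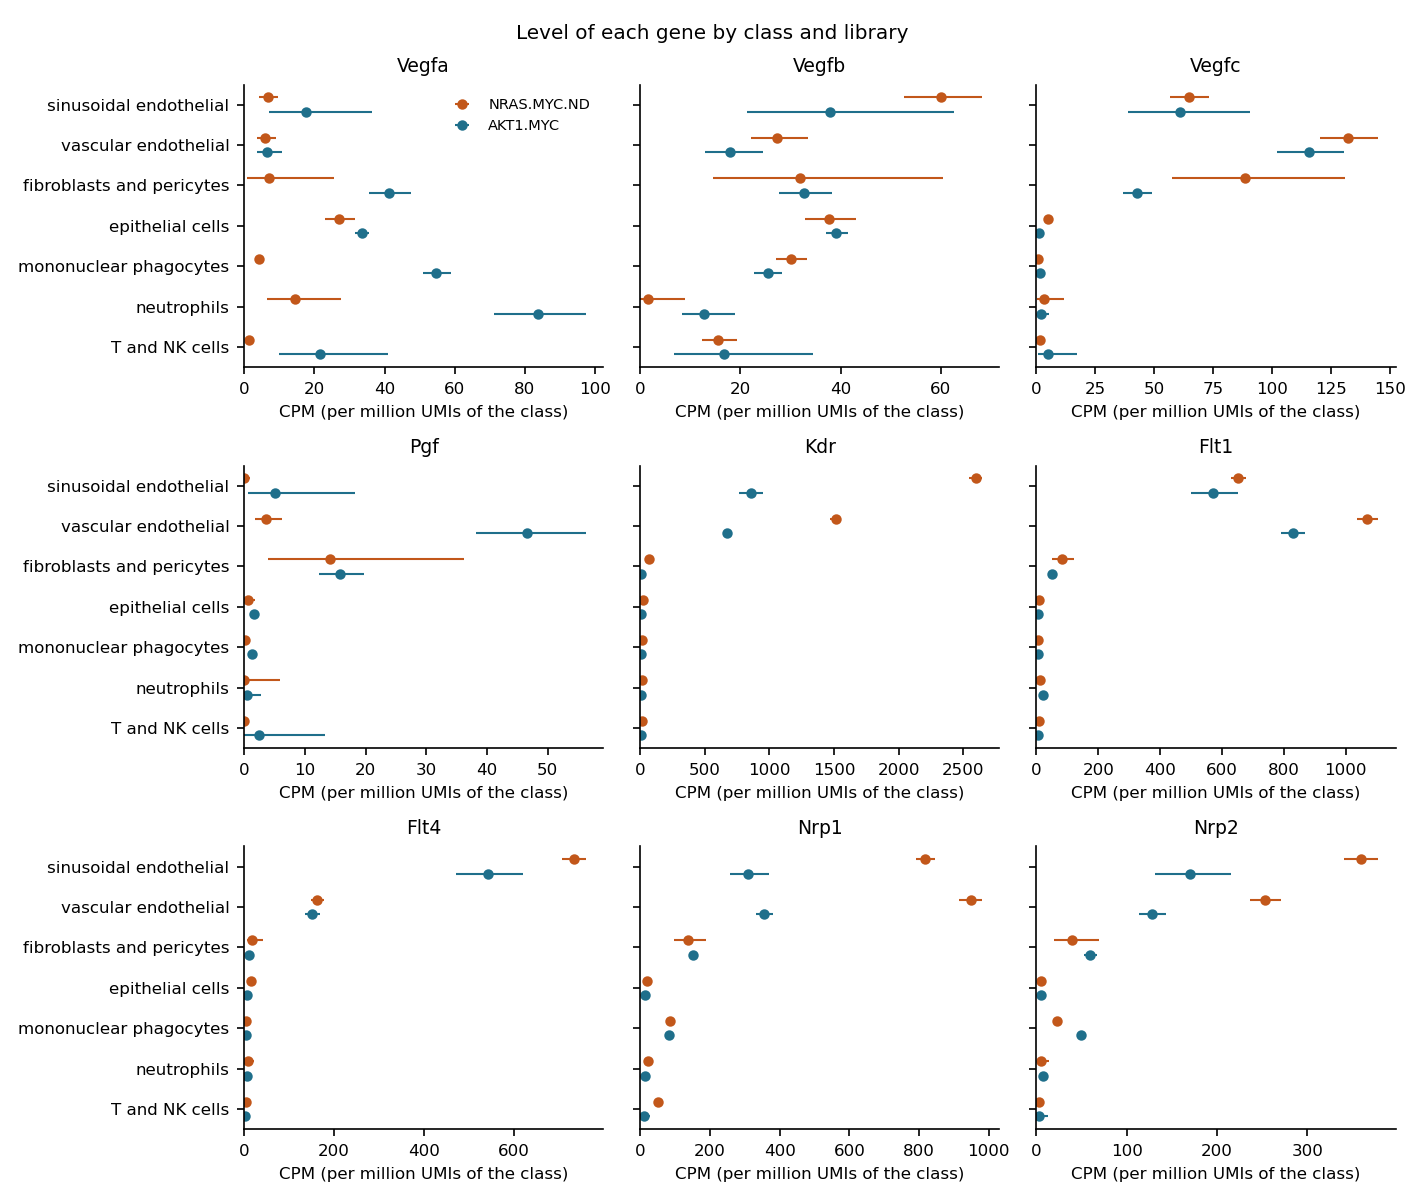
CPM (horizontal axes, each from 0) of the 9 genes in 7 cell classes, with NRAS.MYC.ND in orange and AKT1.MYC in blue; points are class sums of 1 library and bars are exact Poisson 95% intervals. Kdr, Flt1 and Flt4 are highest in the 2 endothelial subsets, Vegfa is high in the phagocytes and neutrophils of AKT1.MYC at 54.8 and 83.6 CPM, and Pgf is highest in the vascular-type cells of AKT1.MYC at 46.5 CPM.

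Among the ligands, Vegfa was 13.2-fold higher in the phagocytes and 5.77-fold higher in the neutrophils of the AKT1.MYC tumour. Its ratio in epithelial cells lay within 2-fold over all cells. In thinned cells it was past 2-fold for the pooled class but not within the hepatocyte-lineage or the duct-type cells. These subsets were thinned to other depths than the pooled class, so the comparison is not like for like. Vegfa lies on the minus strand at chr17:46016993-46032369 and codes for VEGF-A. In mononuclear phagocytes it stood at 4.16 CPM [3.12 to 5.44] in NRAS.MYC.ND, from 53 UMIs, and at 54.8 CPM [50.8 to 58.9] in AKT1.MYC, from 715 UMIs. The log2 ratio was 3.72 with a lower limit of 3.32, and 4.64 in thinned cells. The phagocytes of the libraries fell in different clusters, 68.4% in cluster 0 and 15.9% in cluster 13 for NRAS.MYC.ND and 65.9% in cluster 30 and 17.0% in cluster 21 for AKT1.MYC. In neutrophils it stood at 14.5 CPM [6.62 to 27.5], from 9 UMIs, and at 83.6 CPM [71.2 to 97.4], from 163 UMIs, a log2 ratio of 2.53. Here too the clusters differed, with 98.2% of the neutrophils of NRAS.MYC.ND in cluster 5 and 95.5% of those of AKT1.MYC in cluster 29. The 10 neutrophil markers summed to 212174 CPM in the neutrophils of NRAS.MYC.ND and 52839 CPM in those of AKT1.MYC, and the 12 phagocyte markers to 848 and 3383 CPM there. The 8 duct-type markers summed to 83.7 CPM (4 at 0) and 541 CPM (none at 0) in neutrophils, and the 10 fibroblast markers to 20.9 CPM (4 at 0) and 571 CPM (none at 0). Their part in the Vegfa difference was not tested. Cells that joined no class also held more Vegfa in AKT1.MYC, at 8.81 CPM [5.52 to 13.3], from 22 UMIs, and 45.1 CPM [39.2 to 51.6], from 210 UMIs. Fibroblasts and pericytes stood at 7.08 CPM, from 2 UMIs in 36 cells, and at 41.2 CPM, from 194 UMIs. Over all kept cells it was 8.16 and 39.7 CPM, so the difference was not confined to phagocytes and neutrophils. The part of free RNA in these levels was not tested. In epithelial cells Vegfa stood at 27.1 CPM [23.0 to 31.7] and 33.5 CPM [31.5 to 35.6], a log2 ratio of 0.31. With epithelial cells thinned to 1230 UMIs, leaving out 101 and 109, it stood at 16.8 and 37.4 CPM, a log2 ratio of 1.15, from 8 and 66 cells with a UMI. The largest epithelial clusters were cluster 7 in NRAS.MYC.ND, with 46.00% of the class, and cluster 23 in AKT1.MYC, with 55.4%.

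The difference in phagocytes was present in every subset. Vegfa stood at 1.74 CPM [0.64 to 3.79] and 60.8 CPM [43.7 to 82.5] in Kupffer-type cells, at 4.91 and 68.5 CPM in monocyte-type cells and at 5.11 and 48.6 CPM in the other phagocytes. With phagocytes thinned to 1107 UMIs, leaving out 27 and 386 shallower ones, 0.28% of the rest in NRAS.MYC.ND against 6.21% in AKT1.MYC held a Vegfa UMI. With neutrophils thinned to 1076 UMIs, leaving out 14 and 116, 1.49% and 8.56% did. Without thinning the shares were 2.97% and 16.8% in phagocytes, at medians of 7515 and 3240.5 UMIs. T and NK cells are not known as a main source. In AKT1.MYC 6.67% of their 120 cells, at a median of 2956 UMIs, held a Vegfa UMI. Their level there was 21.5 CPM [9.85 to 40.9], from 9 UMIs, below that of the phagocytes. In NRAS.MYC.ND it was 1.39 CPM [0.56 to 2.87], from 7 UMIs, so Vegfa was higher in AKT1.MYC in this class too. The part of free RNA in this difference was not tested.

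The duct-type epithelial markers summed to 7.85 CPM in the phagocytes of NRAS.MYC.ND and 316 CPM in those of AKT1.MYC, with 8 of 8 higher in AKT1.MYC and none at 0 in either. Fibroblast markers summed to 16.5 and 358 CPM, with 10 of 10 higher. Their part in the difference was not tested.

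Within the epithelium, Vegfa stood at 23.0 CPM [18.8 to 27.9] and 29.4 CPM [23.5 to 36.3] in hepatocyte-lineage cells and at 40.0 CPM [28.5 to 54.7] and 34.0 CPM [31.8 to 36.3] in duct-type cells, and the intervals of the libraries overlapped in both. With hepatocyte-lineage cells thinned to 744 UMIs it stood at 21.6 and 19.4 CPM, from 6 and 4 cells with a UMI. Duct-type cells thinned to 3244 UMIs stood at 51.4 and 40.8 CPM, from 8 and 116 cells with a UMI. The mix of these subsets differed between the libraries, with 412 and 310 hepatocyte-lineage cells and 58 and 1111 duct-type cells. Endothelial cells were low, at 6.66 CPM [4.97 to 8.73] and 9.02 CPM [5.99 to 13.03]. In NRAS.MYC.ND the order of levels was epithelial cells, neutrophils, endothelial cells and phagocytes, with the neutrophil interval meeting those of the epithelial and the endothelial cells and the endothelial interval meeting that of the phagocytes. In AKT1.MYC it was neutrophils, phagocytes, fibroblasts and pericytes, epithelial cells and endothelial cells, with none of these intervals meeting, that of the epithelial cells ending just below that of the fibroblasts and pericytes. Epithelial cells held 155 of the 310 Vegfa UMIs of NRAS.MYC.ND and 1069 of the 2395 of AKT1.MYC (44.6%), while the share in phagocytes was 17.1% and 29.9%, in neutrophils 2.90% and 6.81%, and in endothelial cells 16.8% and 1.17%.

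Counted over the 9 genes, 3 were higher in AKT1.MYC phagocytes (Vegfa, Nrp2 and Pgf), where 16.6% of all genes measured were, and 1, Kdr, was higher in NRAS.MYC.ND, where 9.62% of all genes were. Pgf rested there on 2 and 17 UMIs, with a log2 ratio of 3.05 that was 1.62 in thinned cells, and the Kdr difference reversed when free RNA was subtracted, to a log2 ratio of 2.46. In neutrophils 7 genes were measured. Vegfa and Vegfb were higher in AKT1.MYC, where 33.3% of all genes were, and Kdr, with 10 and 13 UMIs, in NRAS.MYC.ND, where 8.30% were, though short of 2-fold with clusters, with doublets kept and in thinned cells. The median log2 ratio of all genes in neutrophils was 0.52, so 2-fold there is a weaker mark than elsewhere, and TMM scaling (which sets most genes level) shifted all neutrophil ratios by -0.47. In epithelial cells 1 gene, Pgf, had its higher level in AKT1.MYC and Kdr, Flt4 and Vegfc had theirs in NRAS.MYC.ND, 3 genes, where 14.8% of all genes did so in each direction. The epithelial Pgf ratio, from 4 and 53 UMIs, had an interval of -0.19 to 3.18 and fell short of 2-fold with clusters and with free RNA subtracted, as the Flt4 ratio did with free RNA subtracted. Kdr gave no epithelial ratio with free RNA subtracted. Vegfc was found in 0 of the 386 and 0 of the 1498 thinned epithelial cells.

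Pgf codes for placental growth factor, a ligand of VEGFR-1, and lies on the minus strand at chr12:85166635-85177790. It was the rarest member, with 25 UMIs in all of NRAS.MYC.ND and 286 in AKT1.MYC. In endothelial cells it stood at 1.54 CPM [0.79 to 2.68], from 12 UMIs, and at 36.4 CPM [30.0 to 43.8], from 113 UMIs, 23.7-fold higher in AKT1.MYC. With equal weight per cell the log2 ratio was 3.60, and in thinned cells from 2 and 8 cells with a UMI, the levels were 3.99 and 19.8 CPM, a log2 ratio of 2.31. The vascular-type cells held most of it, at 3.53 and 46.5 CPM, and sinusoidal-type cells held 0 and 2 UMIs, where 0 allows up to 0.77 CPM. All 12 UMIs of NRAS.MYC.ND lay in 2 of the 340 vascular-type cells (0.59%), while 16.9% of the 219 of AKT1.MYC held one. With vascular-type cells thinned to 2924 UMIs, leaving out 30 and 26, the shares were 0.32% and 8.29%. In AKT1.MYC, 81.2% of the 16 thinned vascular-type cells with a Pgf UMI also held Esm1 and 56.2% held Apln, 2 genes of endothelial tip cells, against 47.5% and 15.8% of the 177 cells without Pgf. The counting intervals were apart for Apln (29.9% to 80.2% against 10.8% to 22.0%) and overlapped for Esm1. Cells of 1 library are not replicates, and the other genes of the tip cell list are not given here. A link of Pgf with either gene was not tested. Fibroblasts and pericytes stood at 14.2 CPM [3.86 to 36.3] and 15.7 CPM [12.3 to 19.7], below the vascular-type cells of AKT1.MYC.

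Vegfc, at chr8:54077606-54187096 on the plus strand, codes for the main ligand of VEGFR-3. Its endothelial level was 101 CPM [93.9 to 108] in NRAS.MYC.ND and 100.2 CPM [89.3 to 112] in AKT1.MYC, a log2 ratio of -0.01, the smallest difference of the 9. Vascular-type cells stood at 132 and 115 CPM and sinusoidal-type cells at 64.4 and 60.7 CPM. Endothelial cells held 88.4% of its UMIs in NRAS.MYC.ND against 53.0% in AKT1.MYC, where fibroblasts and pericytes held another 34.1%. Those stood at 88.5 CPM [57.3 to 131] and 42.5 CPM [36.8 to 48.8]. Vegfd, the other ligand of VEGFR-3 and not one of the 9, was highest in the same class, at 99.1 CPM [65.9 to 143] and 39.3 CPM [33.8 to 45.4].

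Vegfb, at chr19:6982473-6987651 on the minus strand, codes for a VEGFR-1 ligand linked to fatty acid handling and vessel survival, and it was the most widely spread ligand. It stood at 37.7 and 39.2 CPM in epithelial cells and 30.1 and 25.4 CPM in phagocytes, within 2-fold in both. In fibroblasts and pericytes it stood at 31.9 CPM in NRAS.MYC.ND, from 9 UMIs, against 32.7 CPM in AKT1.MYC. In endothelial cells it stood at 44.2 CPM [39.6 to 49.1] and 19.97 CPM [15.3 to 25.6], 2.21-fold higher in NRAS.MYC.ND. Within sinusoidal-type cells (60.1 and 38.0 CPM) and within vascular-type cells (93 and 41 UMIs, a log2 ratio of -0.60) it did not reach 2-fold, as for Flt4. The endothelial difference was also short of 2-fold with equal weight per cell, at a log2 ratio of -0.70, and in thinned cells, at -0.25, where 7.03% and 6.04% held a Vegfb UMI. In neutrophils it rested on 1 and 25 UMIs, a log2 ratio of 2.99 with a lower limit of 0.38, which was 0.84 in thinned cells and 0.54 with free RNA subtracted.

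**Figure D3:**
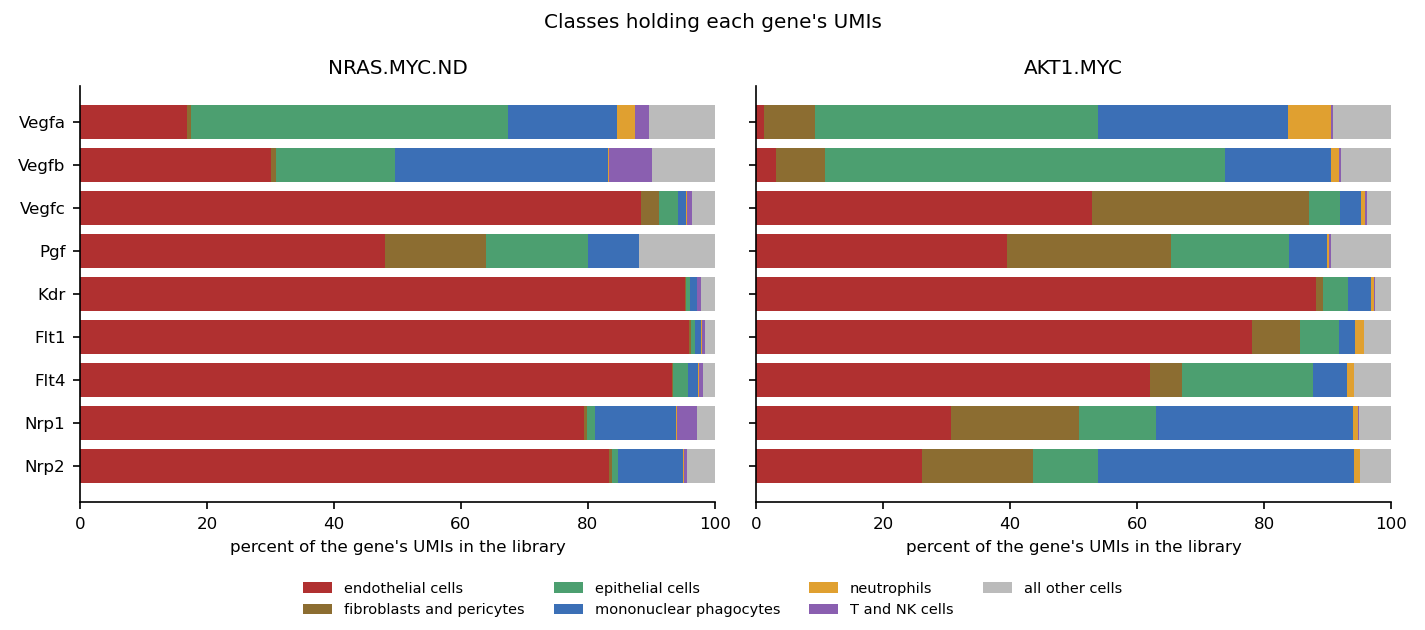
Share of each gene's UMIs (horizontal axis, percent of all UMIs of that gene in kept cells of the library) held by 6 cell classes and by all other cells, NRAS.MYC.ND on the left and AKT1.MYC on the right. The endothelial part shrinks for Nrp1 from 79.4% to 30.7% and for Nrp2 from 83.4% to 26.1%, and the phagocyte part of Vegfa grows from 17.1% to 29.9%.

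Levels over whole libraries also carry the makeup of the cells. Endothelial cells were 785 of 5634 kept cells in NRAS.MYC.ND and 369 of 9398 in AKT1.MYC. The level over all kept cells was 442 CPM for Kdr in NRAS.MYC.ND and 39.9 CPM in AKT1.MYC, a wider gap than within endothelium. For Flt1 it was 178 and 50.7 CPM although the endothelial levels were close. For Vegfa it was 8.16 and 39.7 CPM. Dissociation and live-cell enrichment set which cells enter a library, so shares of cells are those of the suspensions, not of the tumours.

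The other genes of the pathway were followed in lists, each given by its count over the measured genes beside the median of all genes. Of 12 tip cell and VEGF-induced genes, 6 had the higher level in AKT1.MYC endothelium and 0 in that of NRAS.MYC.ND, beside 10.2% and 12.6% of all genes. Their median log2 ratio was 0.61 against -0.12 for all genes. Apln, a peptide ligand of sprouting cells, stood at 21.5 and 143 CPM, Kcne3, a potassium channel subunit, at 30.7 and 129 CPM, Nid2, a basement membrane protein, at 51.6 and 159 CPM, and Plaur, the urokinase receptor, at 25.5 and 62.8 CPM. Esm1, at 916 and 577 CPM, was among the 6 within 2-fold. Of the 15 hypoxia-response genes (Vegfa left out), 6 had the higher level in AKT1.MYC endothelium and 0 the lower, beside the same 10.2% and 12.6% of all genes. The median of the list was 0.23. The 6 were led by Ankrd37 at 7.43 and 30.9 CPM, Egln3, an oxygen sensor, at 7.30 and 28.02 CPM, Car9 with 6 and 9 UMIs, and Hilpda, a lipid droplet protein, at 27.3 and 92.1 CPM. Within vascular-type cells 4 of the 12 tip cell genes had the higher level in AKT1.MYC and 1 the lower, beside 9.27% and 12.7% of all genes.

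The lists also held the signalling chain below the receptors. Of 29 signal transduction genes, 4 had the higher level in AKT1.MYC endothelium and 1 in that of NRAS.MYC.ND, beside 10.2% and 12.6% of all genes, with a median of -0.15. Fyn, a Src-family kinase, was the 1, at 382 and 189 CPM. Those higher in AKT1.MYC rested on few UMIs: Sphk1 on 1 and 24 (log2 ratio 5.92 [3.30 to 11.28]), Src on 7 and 12, Nfatc2 on 9 and 9 and Pik3r2 on 42 and 34. Of the 10 Notch genes in vessels, 9 were measured and 0 were higher in either library. Among 4 measured angiopoietin and TIE genes, Angpt2, which destabilises vessels, was higher in AKT1.MYC (62.1 and 152 CPM), and Ptprb, the phosphatase that restrains TIE2 and VEGFR-2, was higher in NRAS.MYC.ND (1974 and 839 CPM). Of 8 measured semaphorin and plexin genes only Sema3d, at 13.3 and 1.93 CPM, was 2-fold apart.

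Among the 10 genes of receptor trafficking and co-receptors, Cd63, a membrane protein of late endosomes (169.9 and 559 CPM), Itgb3, an integrin subunit (45.2 and 112 CPM) and Sdc1, a heparan sulphate proteoglycan (17.8 and 40.9 CPM), were higher in AKT1.MYC endothelium, and Ephb4, a receptor of venous endothelium, was higher in NRAS.MYC.ND (184 and 90.5 CPM). Of 9 measured genes for VEGF processing and release from matrix, Mmp2 was higher in AKT1.MYC, from 4 and 23 UMIs, and Hpse, the heparanase, was higher in NRAS.MYC.ND (46.9 and 14.2 CPM). Mmp2 was no longer counted in thinned cells or with free RNA subtracted. RNA of fibroblast and duct-type markers was also higher in AKT1.MYC endothelium, and its part in the list differences was not tested.

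The hypoxia-response list was followed in the other classes too. In phagocytes 7 of 15 had the higher level in AKT1.MYC and 0 the lower, beside 16.6% and 9.62% of all genes, with a median of 0.90 against 0.09 for all genes. Egln3 stood at 0.39 and 19.3 CPM, Hilpda at 35.6 and 312 CPM, Ankrd37 at 2.04 and 8.50 CPM and Ndrg1, a stress-response gene, at 6.91 and 26.6 CPM. In neutrophils 6 of 14 had the higher level in AKT1.MYC, where 33.3% of all genes did, and 0 the lower, with a median of 0.81 against 0.52 for all genes, and Hilpda stood at 14.5 and 735 CPM. With TMM scaling the neutrophil count was 2, not 6. In epithelial cells 7 of 15 were higher in AKT1.MYC, where 14.8% of all genes were, led by Car9 at 2.45 and 22.3 CPM, and 2, Epas1 and Bnip3, were higher in NRAS.MYC.ND. Among thinned phagocytes of AKT1.MYC, 33.6% of the 143 with a Vegfa UMI and 22.6% of the 2159 without one held Hilpda. The intervals did not meet for Hilpda and met for the other 8 hypoxia genes compared in this way, and Hilpda was singled out after its values were seen.

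**Figure D4:**
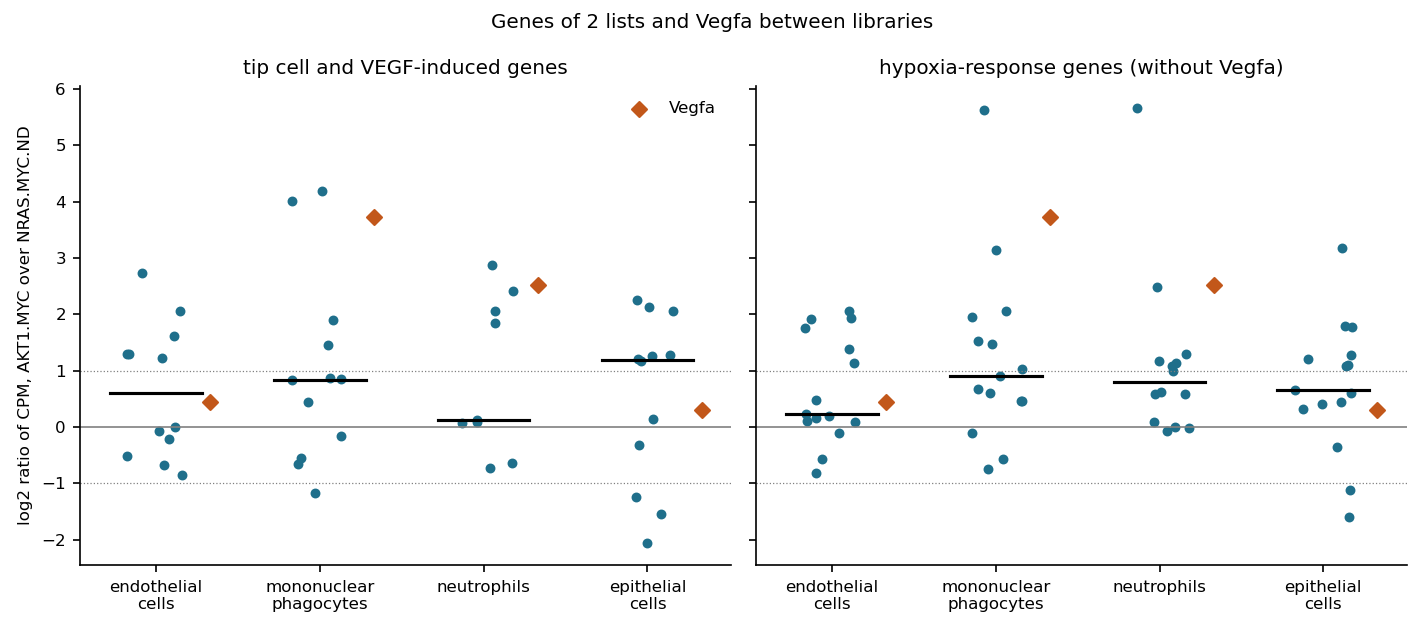
Log2 ratio of CPM, AKT1.MYC over NRAS.MYC.ND (vertical axis), of the measured genes of the tip cell list (left) and the hypoxia-response list (right) in 4 cell classes; blue points are genes, black bars are medians, orange diamonds are Vegfa and dotted lines mark 2-fold. The hypoxia-list medians lie above 0 in all 4 classes, from 0.23 in endothelial cells to 0.90 in phagocytes, and the Vegfa points, which use all cells of a class, are past 2-fold in phagocytes and neutrophils and within it in endothelial and epithelial cells.

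The genes whose levels followed each member most closely were found by Pearson's r of log2(CPM + 10) over 27 class-by-library profiles, among 11120 genes with at least 500 UMIs. Profiles of one library share its free RNA and depth, and r is given as a description. Kdr was followed by Clec14a, Tek and Cyyr1 (r from 0.989 to 0.991), Flt1 by Csgalnact1, Esam and Ramp2, and Flt4 by Npr1, Gm46565 and Tek, several of them endothelial genes. Vegfc was followed by Tmem47, Prex2 and Fgd5, Nrp1 by Nrp2, Hoxb4 and Ptpra, and Nrp2 by Plxna4, Nrp1 and Cd93. The other 3 ligands had looser matches: Vegfa with Ifrd1 (r = 0.856), Rab20 and Nfil3, Vegfb with Cpped1, Spout1 and Yae1d1, and Pgf with Lamb1, Ptn and Fkbp10.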

How the data were processed

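Droplet 3′ single-cell RNA libraries of 2 mouse liver tumour models, 1 library each, were analysed. The deposited values are raw UMI counts per gene and barcode, made by the authors with Cell Ranger (6.1.1 per the file headers, 6.1.2 per the submitters' processing notes) on mm10. Which annotation was used for counting was not given in the sources used here.

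Barcodes with fewer than 500 UMIs or 250 genes, or over 20% mitochondrial UMIs, were dropped, which removed 351 barcodes of NRAS.MYC.ND (of 6312, holding 42416125 UMIs) and 456 of AKT1.MYC (of 10766, holding 64516171 UMIs). The automatic threshold of Scrublet (in Scanpy 1.11.5) marked 0 cells, so the highest scores, at 0.8% per 1000 barcodes, were removed, 327 and 912 cells. A marker was on where its count had a probability under 0.01 from free RNA, taken as 20% of a cell's UMIs, and a cell joined the class with at least 2 markers on and a lead of 0.1 in the share of markers on. The thresholds of this gate, and the T cell gates, were chosen after seeing the data. In all, 590 and 2733 cells, with medians of 2188.5 and 846 UMIs, joined no class.

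UMIs were summed per class and library. For equal depth, the 10th percentile of UMIs in a class, over both libraries, was the depth to which its cells were thinned, and shallower cells were left out. CPM have exact Poisson intervals, ratios exact conditional binomial intervals and shares exact Clopper-Pearson intervals, all at 95%, and they cover counting error only. A count of 0 was given the limit of 3 counts. Models were compared only in classes with 50 or more cells in both libraries. With 1 library per group no test was made. TMM (edgeR 4.0.16) and median-of-ratios (DESeq2 1.42.0) factors were alternatives to totals. The ratios and intervals were tried on Poisson counts simulated from the class sums. These share the assumption of the intervals and hold no clumping of a gene's UMIs in few cells. All 9 members are named, with up to 4 genes per list, direction and class by size of the ratio, and the 3 genes most like each member. The members, lists and markers were chosen with earlier results of these data known. Positions come from GENCODE vM21 by Ensembl identifier and promoters from RefSeq, both on GRCm38, the assembly that mm10 names.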

Additional observations from a re-analysis of the deposited data

Results flagged for a closer look

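Nrp2 differed between the models in opposite directions in 2 classes, with a log2 ratio of AKT1.MYC to NRAS.MYC.ND of -1.19 in endothelial cells and 1.10 in mononuclear phagocytes. The sign held in both classes under all 11 other settings that gave a value, and the phagocyte ratio was short of 2-fold with doublets kept, at 0.96. Vegfb had log2 ratios of -1.15 in endothelial cells and 2.99 in neutrophils, where it rested on 1 and 25 UMIs. Both fell short of 2-fold in thinned cells, at -0.25 and 0.84, as did the neutrophil one with free RNA subtracted, at 0.54, and the endothelial one with equal weight per cell, at -0.70. With 1 library per model, the difference between classes was not tested in either case.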

How the results depend on the processing

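No paired analysis was possible because each group is 1 library, and for the same reason no replicate could be left out. All settings named here were planned, except leaving out barcodes found in both libraries, which was chosen after seeing the data and moved none of the counts. Of the ratios of single genes, 503 of 554 stayed within their main interval, 50 moved outside it and 1 that was past 2-fold changed sign: Kdr in phagocytes, to 2.46 with free RNA subtracted. Among the ratios not past 2-fold or not measured, 13 of 29 pairs of a gene and a class changed sign under at least 1 setting, the widest being Flt4 in phagocytes, from -0.49 to 3.19, and Flt1 in epithelial cells, from -1.48 to 1.72. Over the alternatives, the endothelial ratio ranged from -1.62 to -1.47 for Kdr, from -0.13 to -0.00078 for Flt1, from -1.13 to -0.97 for Flt4, from -1.35 to -1.20 for Nrp1 and from -1.38 to -1.08 for Nrp2, for Pgf from 2.31 to 4.68 and for Vegfb from -1.32 to -0.25. The Vegfa ratio ranged from 3.61 to 4.64 in phagocytes and from 2.02 to 2.85 in neutrophils, and from 0.18 to 1.15 in epithelial cells.

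The number of members higher in NRAS.MYC.ND endothelium was 3 with thinned cells and 1 at 3-fold, against 5. In sinusoidal-type cells the number higher in AKT1.MYC was 0 with equal weight per cell, with thinned cells and at 3-fold and 2 with no filter, against 1, and the number higher in NRAS.MYC.ND was 1 at 3-fold, against 3. In vascular-type cells the number higher in NRAS.MYC.ND was 4 at 1.5-fold and 0 at 3-fold, against 2. In phagocytes the number higher in AKT1.MYC was 5 with free RNA subtracted, against 3, and the number higher in NRAS.MYC.ND was 0 with free RNA subtracted, with equal weight per cell and at 3-fold, against 1. In neutrophils the number higher in AKT1.MYC was 4 with doublets kept and at 1.5-fold and 1 with thinned cells and at a minimum of 30 UMIs, against 2, and the number higher in NRAS.MYC.ND was 3 with either scaling and at 1.5-fold and 0 with clusters, with doublets kept, with free RNA subtracted, at 30 UMIs and at 3-fold, against 1. In epithelial cells the number higher in AKT1.MYC was 2 with free RNA subtracted and 0 with clusters and at 3-fold, against 1, and the number higher in NRAS.MYC.ND was 5 with equal weight per cell and 1 with free RNA subtracted, against 3.

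In endothelial cells, signal transduction genes higher in AKT1.MYC numbered 2 with thinned cells and 1 at 30 UMIs, against 4, and higher in NRAS.MYC.ND 0 with either scaling and 3 with thinned cells, against 1. Semaphorin and plexin genes higher in AKT1.MYC numbered 1 with doublets kept and 3 with no filter, against 0. Notch genes numbered 1 in each direction with thinned cells, against 0. Processing genes higher in AKT1.MYC numbered 0 with thinned cells, with free RNA subtracted and at 30 UMIs, against 1, and higher in NRAS.MYC.ND 2 with thinned cells and with equal weight per cell, against 1. Trafficking genes higher in NRAS.MYC.ND numbered 0 with doublets kept, with either scaling and with free RNA subtracted, against 1. In phagocytes, tip cell genes higher in NRAS.MYC.ND numbered 0 with thinned cells and with equal weight per cell, against 1, and hypoxia genes 1 with free RNA subtracted, against 0. In neutrophils, hypoxia genes higher in AKT1.MYC numbered 2 with either scaling, against 6, tip cell genes higher in AKT1.MYC 2 with free RNA subtracted, against 4, and tip cell genes higher in NRAS.MYC.ND 2 with either scaling and 1 with equal weight per cell and with no filter, against 0. In epithelial cells, hypoxia genes higher in AKT1.MYC numbered 4 with equal weight per cell, against 7, and tip cell genes higher in NRAS.MYC.ND 1 with thinned cells and with free RNA subtracted, against 3. The causes were not tested. Clusters gave no values for the endothelial subsets, since they do not split along them.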
